A study of Rattus norvegicus with 14 samples.

Results

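Peritoneal mesotheliomas of rats that arose after the injection of MWCNT B were compared with control peritoneal tissue. MWCNT B is 1 of the tailor-made types of multiwalled carbon nanotube (MWCNT, a fiber of nested graphene cylinders) that were tested for carcinogenicity. The tumors were chosen by the labels alone, as all tumors labelled as induced by MWCNT B, and number 2 of the 11 tumors in the series. With the 3 control tissues they make up 5 of 14 samples, each hybridized to 1 Affymetrix rat genome array. MWCNT B replicate 1 was an epithelioid and MWCNT B replicate 2 a sarcomatoid mesothelioma, so that each histological type is represented by 1 tumor. Both came from male Wistar rats that had received 1 intraperitoneal injection of the nanotubes in artificial lung medium. Control replicates 1, 2 and 3 were tumor-free peritoneal tissues of male Wistar rats, described as sham-treated in the labels and as untreated in the study's methods. The age of the rats was not given in the sources used here. The other 9 tumors, 3 each induced by MWCNT C, MWCNT D or amosite asbestos, served as a reference for what MWCNT B tumors share with tumors of other inducers. Tumors had been selected by inducer and by the amount of frozen material, and their late stage and unmeasured tumor cell content limit them as a model. The labels call the samples biological replicates. The samples are bulk tissue, in which fewer cells of a type and less RNA per cell cannot be told apart.

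The peritoneum is lined by mesothelial cells, a flat epithelium of mesodermal origin that expresses simple-epithelial keratins, mesothelin and the transcription factor WT1. Mesothelioma arises from this lining. Epithelioid tumors keep epithelial junctions and keratins, whereas sarcomatoid tumors are made of spindle-shaped, mesenchymal-like cells. Long biopersistent fibers are known for persistent inflammation in the body cavities, with macrophages that cannot take the fibers up. Beneath the lining of the abdominal wall lies skeletal muscle, a tissue rich in sarcomere proteins and mitochondria.

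The deposited values are PLIER signals, an array intensity on a linear scale, and were analysed as log2(signal + 1), here called the log2 signal. Precision is limited by the number of arrays, with 2 tumors against 3 controls. The median signal of an array was 146.6 and 131.9 in the MWCNT B tumors and 97.19, 104.5 and 101.0 in the controls. Log2 signals below 5 made up 16.2% and 18.7% of the probe sets in the tumors and 21.8% to 24.4% in the controls. The Pearson correlation was 0.926 between the 2 tumors and 0.975 to 0.98 between controls, over probe sets that do not count as replicates. The log2 signal of the 3′ minus the 5′ probe set was 0.38 and 0.41 in the tumors and -1.24 to -0.65 in the controls for beta-actin, 0.91 and 0.83 against 1.7 to 3.91 for hexokinase, and 0.06 and -0.03 against 0.1 to 0.16 for Gapdh. Genes of 2 skeletal muscle lists (49 genes) held 0.101% and 0.107% of the signal of the tumor arrays and 11.9% to 12.5% of that of the control arrays. The part of these differences in RNA ends and in muscle content in the gene results was not tested.

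Against the controls, 6442 of 31042 probe sets were higher in MWCNT B tumors (20.8%) and 2916 were lower (9.39%). The limits were an adjusted p of 0.05 in limma and a fold change of 2. Below, rose and fell are used of genes that passed both limits (called). All adjusted p-values of single genes are from limma, adjusted over all probe sets. Per gene, with each gene represented by its probe set of the highest mean signal, 3285 of 14217 genes rose (23.1%) and 1380 fell (9.71%). The error of each fold change comes from the spread within all 5 groups of the series, so that a gene with uneven levels among the other tumors has a larger error here. The shares of 23.1% and 9.71% are the background for every list of genes given here, where no other setting is named. The median log2 fold change of all genes was 0.41, so that every fold change contains this shift. With each array centred on its median (centring) the median was -0.05, and 2002 genes (14.1%) rose while 2378 (16.7%) fell. The 2002 genes were all among the 3285, and all 1380 genes that fell did so after centring too. Of all calls over probe sets, 68.8% were therefore higher before and 42.4% after centring. For genes near background, fold changes are also given at a floor, with log2 signals below 5 raised to 5.

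Ranked by fold changes at the floor, the largest rise was that of Gpr15lg, the secreted ligand of the receptor GPR15, with log2 signals of 13.11 and 12.91 in the tumors and 4.36, 4.16 and 3.28 in the controls. Its log2 fold change was 9.08 (standard error 2.88, adjusted p = 0.028), or 8.01 at the floor. The B cell chemokine gene Cxcl13 followed with 13.83 and 12.16 against 4.86, 4.94 and 5.54 and a log2 fold change of 7.88 (standard error 1.08, adjusted p = 0.00027). Osteopontin (Spp1), a secreted matrix glycoprotein, had log2 signals of 11.67 and 13.35 in the tumors and 0.03, 6.55 and 6.33 in the controls, and rose by 8.21 (adjusted p = 0.0073), or 6.55 at the floor. Control replicate 1 was thus at background for Spp1 and the other controls were above it. Ezrin (Ezr), which links actin to the cell membrane, rose by 6.39 (adjusted p = 9.4e-06) from 5.05, 6.16 and 6.85 to 12.4 and 12.42, and the 2 tumors were nearly equal. Crabp2, a retinoic acid binding protein, rose by 6.58 (adjusted p = 0.0058) and the transmembrane protein gene Tmem178a by 6.13 (adjusted p = 0.00013). The other 4 of the 10 largest rises were the mesothelial genes Krt8, Msln, Wt1 and Upk1b. In none of these 10 genes did the tumors overlap the controls, which the rule for choosing them required. Spp1 lost its call without MWCNT B replicate 2, and Gpr15lg without any 1 of the 5 arrays (adjusted p up to 0.11).

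The 10 largest falls at the floor were all in genes of striated muscle. Muscle phosphoglycerate mutase (Pgam2), a glycolytic enzyme, had log2 signals of 5.24 and 5.47 in the tumors and 19.33, 19.36 and 19.28 in the controls and fell by 13.96 on the log2 scale. Myospryn (Cmya5), a protein of the sarcomere's Z-disc region, lay at 3.62 and 3.07 in the tumors and 18.35, 18.43 and 18.3 in the controls. The calcium channel subunit gene Cacng1 lay at 6.44 and 6.19 in the tumors and 19.48, 19.61 and 19.56 in the controls, and that of the sarcoplasmic reticulum protein Hrc at 5.42 and 5.56 in the tumors and 18.19, 18.16 and 18.1 in the controls. The fast myosin heavy chain Myh4, the ventricular and slow regulatory light chain Myl2, alpha-actinin 2 (Actn2), triadin (Trdn), Smpx and the muscle cytochrome oxidase subunit Cox8b made up the rest. All 5 arrays gave 2 well separated levels for each of these genes, and the rule for choosing them required that the groups not overlap. Controls had 30 to 32 probe sets with a log2 signal above 16 and the tumors 0 and 2, so that the sizes of the largest falls depend on values at the top of the scale.

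**Figure D1:**
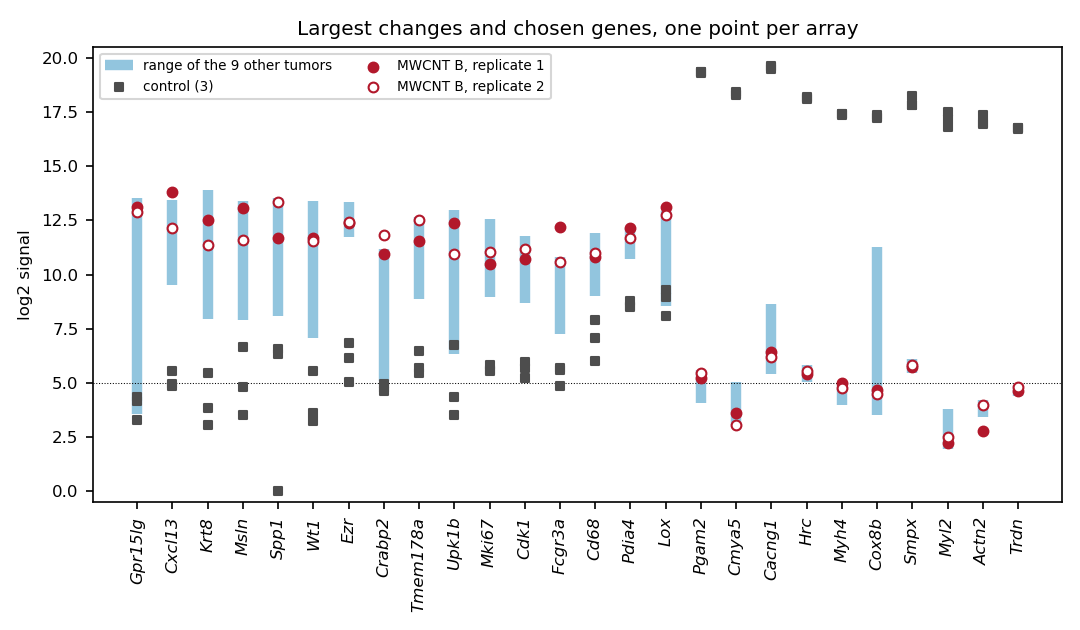
Log2 signal (vertical axis) of the 10 largest rises, 6 chosen genes and the 10 largest falls, with 1 point for each MWCNT B tumor and each control and a bar for the range of the 9 other tumors. The dotted line marks the floor at 5. For the 10 falls the controls lie above 16, whereas for the 10 rises they lie below 7.

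**Figure D2:**
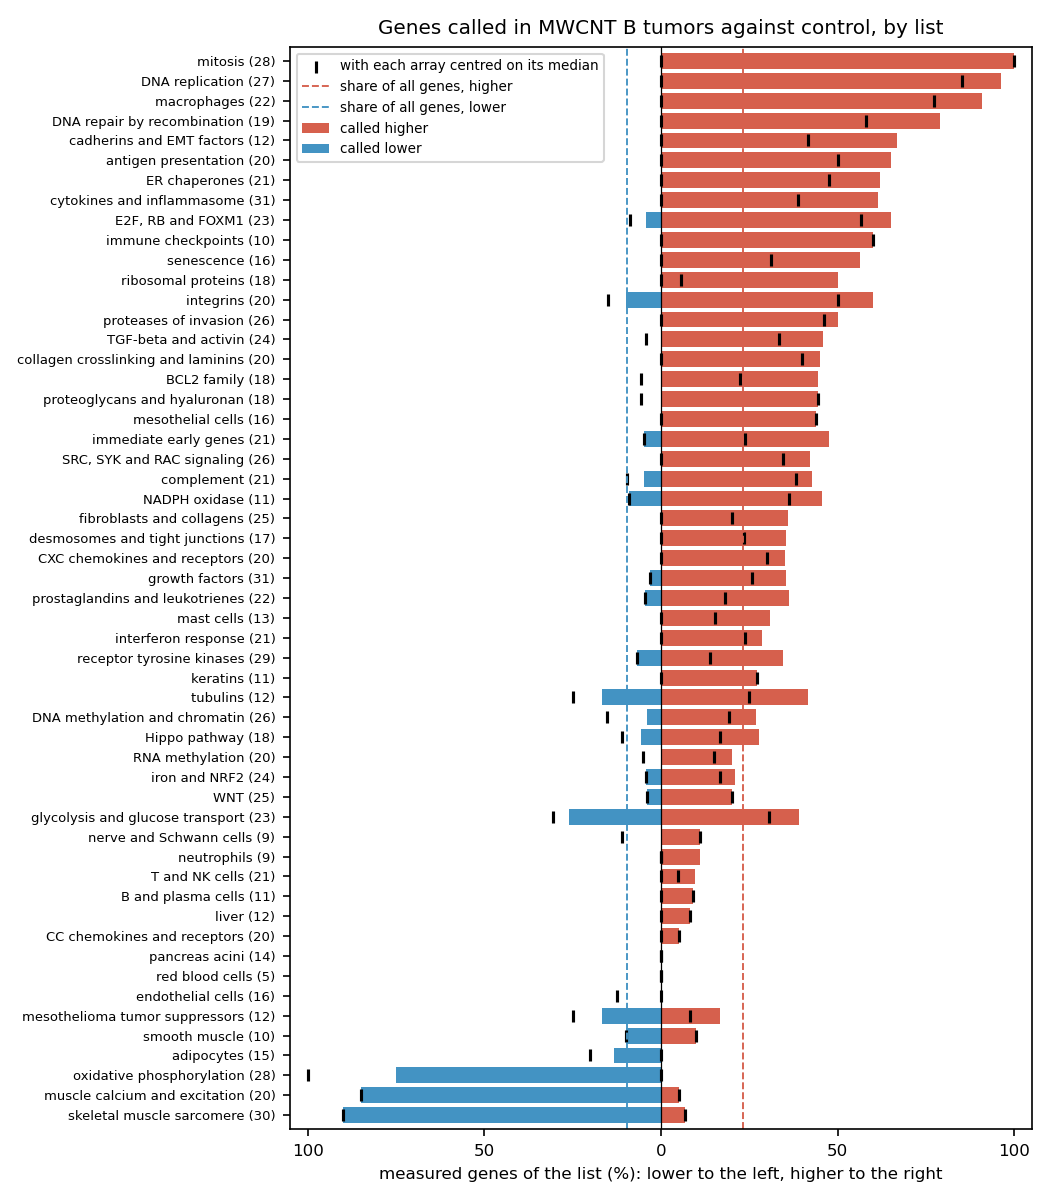
Share of the measured genes of each described list (number in brackets) called higher (right) or lower (left) in MWCNT B tumors against controls, in percent. Dashed lines mark the shares over all genes, 23.1% higher and 9.71% lower, and ticks the shares after centring. Mitosis stands at the top with all 28 genes higher, and the sarcomere at the bottom with 27 of 30 lower.

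**Figure D3:**
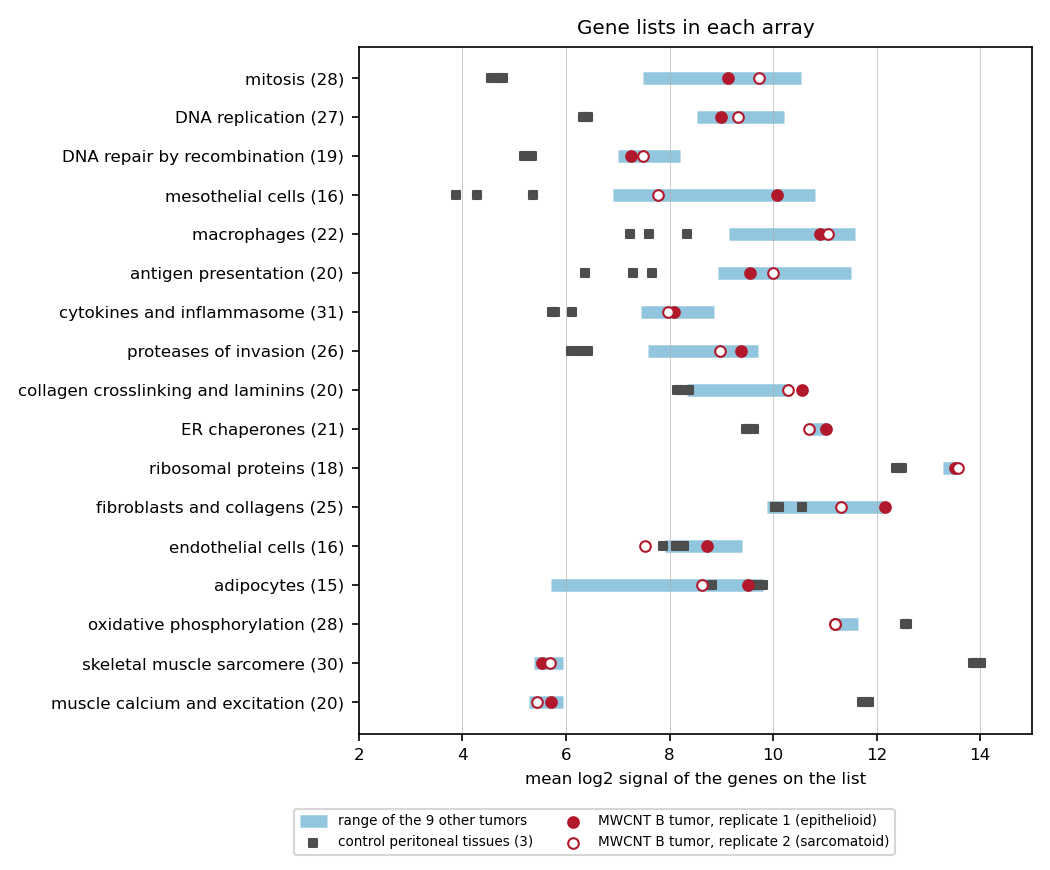
Mean log2 signal (horizontal axis) of the genes of 17 lists in each MWCNT B tumor and each control, with a bar for the range of the 9 other tumors. For the sarcomere the controls lie at 13.86 to 14.02 and the MWCNT B tumors at 5.54 and 5.7, and for mitosis the controls lie at 4.55 to 4.78 and the MWCNT B tumors at 9.12 and 9.73.

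Several markers of mesothelial cells were at high levels in both tumors and near background in the controls. Of 16 measured genes 7 rose and 0 fell, with a median log2 fold change of 5.39 over the list, or 2.81 at the floor with 5 genes higher. Mesothelin (Msln), a cell surface glycoprotein, had log2 signals of 13.06 and 11.61 in the tumors and 4.82, 3.5 and 6.64 in the controls and a log2 fold change of 7.35 (standard error 1.46, adjusted p = 0.0025), or 6.79 at the floor. WT1 (Wt1), a zinc finger transcription factor of the mesothelium, lay at 11.68 and 11.54 in the tumors and 3.62, 3.26 and 5.54 in the controls, and rose by 7.47 (standard error 1.22, adjusted p = 0.00081), or 6.43 at the floor. Uroplakin 1B (Upk1b), a membrane protein shared with the urothelium, lay at 12.38 and 10.95 in the tumors and 3.51, 4.33 and 6.74 in the controls and rose by 6.81 (adjusted p = 0.01), or 6.09 at the floor. For all 3 genes the tumors lay above 10 and no control reached 7. Gata6, a mesodermal and endodermal transcription factor, rose by 6.07 (adjusted p = 0.00039), or 4.59 at the floor. Calretinin (Calb2), used in the diagnosis of mesothelioma, lay at 7.65 and 7.31 in the tumors and 7.27, 7.52 and 7.36 in the controls and was not called (log2 fold change 0.1, adjusted p = 0.76). The labelled tissue of the tumors thus showed mesothelial markers, whereas in the controls, labelled as peritoneum, they were weak. The list mean was 10.08 and 7.78 in the tumors and 3.87, 4.28 and 5.37 in the controls. Upk1b lost its call without MWCNT B replicate 1 (adjusted p = 0.077).

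Some keratins and junction genes were higher in the tumors, and several of these were much higher in MWCNT B replicate 1 than in replicate 2. Of 11 keratins 3 rose, a share near that of all genes, namely Krt8, Krt18 and Krt14. Krt8, a keratin of simple epithelia, lay at 12.54 and 11.36 in the tumors and 3.05, 3.84 and 5.47 in the controls, with a log2 fold change of 7.84 (standard error 1.39, adjusted p = 0.0013), or 6.8 at the floor. Its partner Krt18 lay at 11.4 and 6.18 in the tumors and 0.03, 1.81 and 3.66 in the controls and rose by 6.96 (adjusted p = 0.02), or 3.79 at the floor, and Krt14, a keratin of stratified epithelia, rose by 9.21 (adjusted p = 0.013), or 4.59 at the floor. Krt7 and Krt19 were at 11.27 and 11.79 in MWCNT B replicate 1 but at 5.07 and 6.02 in replicate 2, and were not called (adjusted p = 0.13 and 0.12). Among genes of desmosomes and tight junctions 6 of 17 rose. Plakophilin 1 (Pkp1), a desmosomal plaque protein, had log2 signals of 9.91 and 11.78 in the tumors and 2.82, 0.08 and 0.07 in the controls and rose by 9.85 (standard error 1.28, adjusted p = 0.00019), or 5.84 at the floor. The desmosomal cadherin Dsc2 rose by 4.34 (adjusted p = 0.011), or 3.02 at the floor, the tight junction protein occludin (Ocln) by 2.51 (adjusted p = 0.017) and the scaffold Tjp1 by 1.67 (adjusted p = 0.03). Epcam, an epithelial adhesion molecule, lay at 10.44 and 5.22 in the tumors and 4.11, 2.78 and 3.57 in the controls, so that only MWCNT B replicate 1 was high, and was not called (log2 fold change 4.34, adjusted p = 0.19). The list of keratins had counts of 1 higher without MWCNT B replicate 1 and 1 higher at the floor. The list of desmosomes and tight junctions had counts of 1 higher without MWCNT B replicate 1. Krt14, Dsc2 and Ocln lost their calls without MWCNT B replicate 1, Krt18 without MWCNT B replicate 1 or control replicate 1, and Tjp1 without any 1 of the 5 arrays (adjusted p up to 0.21). Krt18 (3.79) and Krt14 (4.59) were not called at the floor, nor was Tjp1 (1.21) after centring.

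Several cadherins, and transcription factors of the epithelial to mesenchymal transition, were higher in the tumors. Among cadherins and factors of the epithelial to mesenchymal transition 8 of 12 rose. Cadherin 11 (Cdh11) had log2 signals of 11.73 and 11.92 in the tumors and 5.22, 6.27 and 6.86 in the controls and a log2 fold change of 5.71 (standard error 1.18, adjusted p = 0.0033). P-cadherin (Cdh3) rose by 5.49 (adjusted p = 0.0067), or 4.66 at the floor, and the transcription factors Twist1 and Snai1, which act in this transition, rose by 3.42 (adjusted p = 0.026) and 2.45 (adjusted p = 0.0065). Vimentin (Vim), the intermediate filament of mesenchymal cells, was abundant in all samples at 13.95 and 14.01 in the tumors and 11.47, 12.17 and 11.8 in the controls and rose by 2.17 (adjusted p = 0.0018). N-cadherin (Cdh2) rose by 4.2, or 3.65 at the floor, where it was not called. It was among the genes with the largest difference in favor of MWCNT B replicate 2. E-cadherin (Cdh1) lay at 11.05 and 4.59 in the tumors and 2.12, 3.29 and 2.83 in the controls and was not called (5.07, adjusted p = 0.13), and Zeb1 was not called either (0.16, adjusted p = 0.75). The list of cadherins and EMT factors had counts of 4 higher without MWCNT B replicate 1 or 2 or control replicate 2 or 3, 5 higher without control replicate 1, 5 higher at the floor and 5 higher after centring. Cdh3 and Snai1 lost their calls without MWCNT B replicate 1, and Twist1 without MWCNT B replicate 2 or control replicate 1, 2 or 3 (adjusted p up to 0.18). Twist1 (2.96) was not called after centring.

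Cell division genes were higher in both tumors. All 28 of 28 mitotic genes rose, and all 28 did so after leaving out any 1 of the 5 arrays and after centring and 27 at the floor, with a median log2 fold change of 4.79 against 0.41 over all genes. Cdk1, the kinase that drives entry into mitosis, had log2 signals of 10.72 and 11.16 in the tumors and 5.67, 5.97 and 5.25 in the controls and a log2 fold change of 5.31 (standard error 0.55, adjusted p = 4.4e-05). Mki67, the gene of the proliferation antigen Ki-67, lay at 10.47 and 11.06 in the tumors and 5.6, 5.81 and 5.53 in the controls and rose by 5.12 (standard error 0.62, adjusted p = 0.00012). The kinesin Kif20a, which acts in cytokinesis, rose by 5.39 (adjusted p = 7.4e-05) and Ect2, an activator of RhoA at the cleavage furrow, by 5.01 (adjusted p = 0.0002). Ccnb2, a mitotic cyclin, lay at 10.14 and 11.26 in the tumors and 6.02, 5.89 and 6.12 in the controls, and rose by 4.69 (adjusted p = 5.8e-05). For each of these 5 genes the value of MWCNT B replicate 2 was above that of replicate 1, and both were more than 4 log2 units above every control.

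Genes that copy and repair DNA rose with them. On the DNA replication list 26 of 27 rose, and Dut was the exception (0.8, adjusted p = 0.12). Mcm6, a subunit of the replicative helicase, lay at 10.07 and 10.54 in the tumors and 5.21, 5.95 and 5.57 in the controls and rose by 4.72 (standard error 0.4, adjusted p = 9e-06). Its partner Mcm3 rose by 4.76 (adjusted p = 2.3e-05), or 4.08 at the floor, thymidine kinase (Tk1) by 3.9 (adjusted p = 0.0008) and thymidylate synthase (Tyms) by 4.76 (adjusted p = 0.00037), or 3.58 at the floor. Of the genes of repair by recombination 15 of 19 rose, among them the checkpoint kinases Chek1 (4.03, adjusted p = 0.0011, 3.28 at the floor) and Atr (2.93, adjusted p = 0.00015), the exonuclease Exo1 (3.37, adjusted p = 0.00031, 2.58 at the floor) and the helicase Blm (2.54, adjusted p = 0.00055). Of the E2F, RB and FOXM1 genes, which control the cell cycle by transcription, 15 of 23 rose, led by Ccna2 (5.12, adjusted p = 3.9e-05), cyclin D1 (Ccnd1, 4.24, adjusted p = 0.00014), E2f1 (4.38, adjusted p = 0.00015, 3.75 at the floor) and E2f8 (5.32, adjusted p = 0.00025, 3.63 at the floor). The exception in the other direction was Tfdp2, a partner of E2F proteins (-1.78, adjusted p = 0.041), and the number of lower genes was 0 without any 1 of the 5 arrays and at the floor and 2 after centring. Tfdp2 lost its call without any 1 of the 5 arrays (adjusted p up to 0.16). Tfdp2 (-1.78) was not called at the floor.

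Promoters of 4 of these genes are shown because cell cycle genes share known promoter elements. Sequences are the 250 bases before the start site of transcription from RefSeq (build GRCr8), written 5′ to 3′ on the strand of the gene, and capitals mark matches on either strand to the cell cycle genes homology region (CHR, TTTGAA), the CCAAT box (CCAAT) and the E2F site (TTTGGCGC). In Mki67 a CHR and a CCAAT box on the other strand share a base, so that the capitals run together.
Cdk1 chr20:19265043-19265292 (plus strand): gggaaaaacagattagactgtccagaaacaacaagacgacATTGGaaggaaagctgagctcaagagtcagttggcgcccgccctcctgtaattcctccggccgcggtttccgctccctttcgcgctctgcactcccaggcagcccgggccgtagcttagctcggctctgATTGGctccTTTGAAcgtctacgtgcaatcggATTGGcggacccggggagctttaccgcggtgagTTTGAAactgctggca
Mki67 chr1:199952594-199952843 (minus strand): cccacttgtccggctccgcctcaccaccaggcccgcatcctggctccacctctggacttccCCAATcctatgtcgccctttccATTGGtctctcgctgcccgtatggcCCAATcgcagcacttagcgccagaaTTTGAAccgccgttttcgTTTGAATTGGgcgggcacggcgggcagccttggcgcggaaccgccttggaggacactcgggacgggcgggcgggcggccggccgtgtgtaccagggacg
Ccnb2 chr8:79981659-79981908 (minus strand): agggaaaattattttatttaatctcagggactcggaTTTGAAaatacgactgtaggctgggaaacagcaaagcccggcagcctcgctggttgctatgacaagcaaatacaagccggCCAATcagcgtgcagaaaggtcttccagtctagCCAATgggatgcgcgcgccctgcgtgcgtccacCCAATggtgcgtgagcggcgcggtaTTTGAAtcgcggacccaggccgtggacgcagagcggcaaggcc
Mcm6 chr13:42404353-42404602 (minus strand): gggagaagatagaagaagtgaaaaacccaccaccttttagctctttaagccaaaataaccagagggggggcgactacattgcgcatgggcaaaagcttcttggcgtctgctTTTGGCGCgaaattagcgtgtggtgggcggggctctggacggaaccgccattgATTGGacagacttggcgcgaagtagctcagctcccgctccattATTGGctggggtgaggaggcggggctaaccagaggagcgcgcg
Counted from the start site, the CHR of Cdk1 lie at -72 and -16, those of Mki67 at -117 and -99 and those of Ccnb2 at -214 and -43, and the E2F site of Mcm6 lies at -139. In windows that also held the first 50 bases after the start site, a CHR was found in 17 of 26 mitosis genes with a promoter in RefSeq (65.4%), in 1 of 25 replication genes (4.0%), in 12.3% of 11700 measured genes and in 18.1% of 27457 promoters in all. A CCAAT box was found in 20 of the 26 mitosis genes (76.9%), in 60.0% of the replication genes and in 37.7% of all promoters, and both elements in 15 of the 26 (57.7%) and in 7.25% of all promoters. The E2F site was found in 7 of 25 replication genes, in 0 of 26 mitosis genes and in 0.521% of all promoters. These matches describe the letters of the window and are not evidence of binding.

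Sarcomere genes of skeletal muscle fell. Of 30 sarcomere genes 27 fell and 2 rose, with a median log2 fold change of -8.84, and the counts were the same without any 1 of the 5 arrays. Myh4 had log2 signals of 4.99 and 4.76 in the tumors and 17.39, 17.38 and 17.41 in the controls and a log2 fold change of -12.52 (standard error 0.25, adjusted p = 4.4e-11). For Myl2 they were 2.23 and 2.52 in the tumors and 17.19, 16.82 and 17.49 in the controls, with a log2 fold change of -14.79 (standard error 0.47, adjusted p = 1.4e-09), or -12.17 at the floor. Actn2, which anchors thin filaments, changed by -13.74 (adjusted p = 1.9e-10), or -12.11 at the floor, and skeletal alpha-actin (Acta1) by -7.51 (adjusted p = 4e-06), or -7.07 at the floor. The 2 genes that rose were the tropomyosins Tpm2, at 11.68 and 10.77 in the tumors and 7.16, 7.49 and 7.86 in the controls (log2 fold change 3.72, adjusted p = 0.0016), and Tpm3 (3.0, adjusted p = 7.5e-06), which non-muscle cells also use. With each gene represented by its probe set of the largest change, Tpm2 changed by -10.32 and Tpm3 by -6.14, and 0 genes of the list rose and 29 fell. Desmin (Des) was high in both groups and not called (-1.71, adjusted p = 0.32).

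Of 20 genes of excitation and calcium handling 17 fell and 1 rose, Asph (1.72, adjusted p = 0.002), whose locus also encodes the calcium-handling protein junctin. With the probe sets of the largest change Asph changed by -8.17, and 0 rose and 18 fell. Cacng1, a subunit of the voltage sensor, changed by -13.24 (adjusted p = 3.8e-07), Trdn by -12.02 (adjusted p = 5.7e-12), junctophilin 1 (Jph1), which holds the membranes of the triad together, by -13.84 (adjusted p = 5.6e-11), or -11.67 at the floor, and the calcium buffer parvalbumin (Pvalb) by -13.03 (adjusted p = 8.8e-11), or -11.17 at the floor. The acetylcholine receptor subunit Chrna1 was near background in all samples at 5.57 and 4.93 in the tumors and 5.61, 5.52 and 6.01 in the controls and was not called (-0.46, adjusted p = 0.36). Smooth muscle genes moved less. Of 10 genes 1, smooth muscle actin (Acta2, 3.31, adjusted p = 1.1e-05), rose and 1, leiomodin 1 (Lmod1, -5.15, adjusted p = 0.0017), fell. Smooth muscle myosin (Myh11) was not called (-0.66, adjusted p = 0.26). The list of smooth muscle had counts of 2 higher without MWCNT B replicate 2.

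The promoters of Myh4 and Acta1 are shown as examples of muscle genes, with capitals for the E-box (CAGCTG), the element of MyoD family factors, and for the TATA box (TATAAA) on either strand, from the same RefSeq build.
Myh4 chr10:52421898-52422147 (plus strand): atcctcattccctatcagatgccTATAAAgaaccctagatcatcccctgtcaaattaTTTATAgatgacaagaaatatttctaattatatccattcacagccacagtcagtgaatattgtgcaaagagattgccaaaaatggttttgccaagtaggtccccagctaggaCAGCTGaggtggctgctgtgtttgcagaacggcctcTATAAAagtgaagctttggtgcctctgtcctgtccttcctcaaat
Acta1 chr19:68784195-68784444 (minus strand): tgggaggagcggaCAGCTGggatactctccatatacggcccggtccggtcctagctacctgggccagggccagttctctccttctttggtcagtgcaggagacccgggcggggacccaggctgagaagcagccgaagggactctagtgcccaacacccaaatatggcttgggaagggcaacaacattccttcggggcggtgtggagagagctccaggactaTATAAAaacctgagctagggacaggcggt
The E-box lies at -81 in Myh4 and at -237 in Acta1, and a TATA box at -45 and -29, with further matches at -227 and -193 in Myh4. In the windows of 300 bases a TATA box was found in 9 of 24 sarcomere genes (37.5%), in 8.45% of measured genes and in 14.3% of all promoters. An E-box was found in 7 of the 24 (29.2%) and in 8 of 14 genes of excitation and calcium handling (57.1%), against 16.6% of measured genes and 15.1% of all promoters.

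Mitochondrial respiration genes, which are abundant in muscle, fell as well. Of 28 genes of oxidative phosphorylation 21 fell and 0 rose, and after centring all 28 fell. The complex I subunit Ndufs3 had log2 signals of 9.97 and 9.73 in the tumors and 12.39, 12.4 and 12.39 in the controls, with a log2 fold change of -2.54 (standard error 0.21, adjusted p = 8.5e-06), and Ndufs1, Ndufv2 and the cytochrome oxidase subunit Cox5a changed by -2.03, -2.03 and -1.85. The 5 arrays fell into 2 levels with no overlap for each of these genes, which were chosen as the largest falls of their list. Glycolysis genes moved in both directions, with 9 of 23 higher and 6 lower. The muscle forms Pgam2, Eno3 (-4.37, adjusted p = 0.0012) and Pfkm (-4.24, adjusted p = 2.5e-06) and the insulin-regulated glucose transporter Slc2a4 (-6.8, adjusted p = 3.1e-05) fell. Lactate dehydrogenase A (Ldha) was abundant in all samples at 13.21 and 13.14 in the tumors and 13.5, 13.54 and 13.48 in the controls and was not called (-0.33, adjusted p = 0.53). The list of glycolysis and glucose transport had counts of 5 higher without MWCNT B replicate 1 or 2.

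Many of these muscle genes have a counterpart of the same function used by other cells, and 26 such pairs were compared. In the 22 pairs measured the muscle gene fell in 19 and the other gene rose in 18 (13 after centring, 16 at the floor), and in 15 pairs both happened. For phosphoglycerate mutase the log2 fold changes were -13.96 for Pgam2 and 2.88 for Pgam1 (adjusted p = 5.7e-05). Whether one form replaced another within cells was not tested in this bulk tissue. Pgam1 had log2 signals of 13.43 and 13.38 in the tumors and 10.35, 10.64 and 10.58 in the controls. The alpha-actinins Actn2 and Actn1 changed by -13.74 and 4.3 (adjusted p = 6.8e-05), and the myosin heavy chains Myh4 and Myh9 by -12.52 and 2.92 (adjusted p = 0.00016). Caveolin 3 (Cav3), the muscle caveolin, changed by -9.65 (adjusted p = 8.1e-08) and Cav1 by 1.5 (adjusted p = 0.046). The ribosomal protein Rpl3l, a muscle paralog, changed by -9.41 (adjusted p = 3e-08), or -8.06 at the floor, and Rpl3 by 2.46 (adjusted p = 6.3e-06). In 3 pairs the muscle gene fell and the other was not called, as for the creatine kinases Ckm (-8.36, adjusted p = 4.7e-11) and Ckb (2.0, adjusted p = 0.07), the AMP deaminases Ampd1 and Ampd3 and the myosin light chains Myl11 and Myl9. Both members fell for the methyltransferases Smyd1 (-5.57, adjusted p = 1e-06) and Smyd2 (-2.45, adjusted p = 2.3e-05). For the calcium pumps Atp2a1 (-8.86, adjusted p = 6.4e-11) and Atp2a2 (2.02, adjusted p = 0.0025) the probe sets of Atp2a2 disagreed, and the one with the largest change changed by -3.4. Cav1 lost its call without any 1 of the 5 arrays (adjusted p up to 0.18). Cav1 (1.5) was not called at the floor, nor was Cav1 (1.04) after centring.

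**Figure D4:**
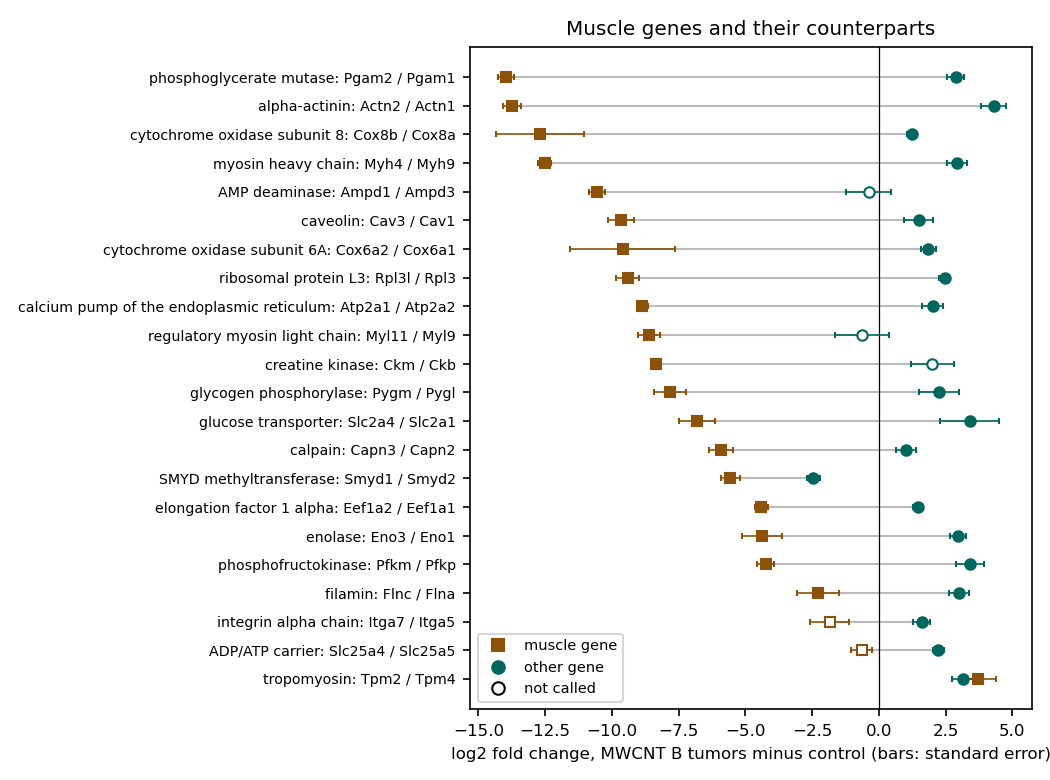
Log2 fold change of MWCNT B tumors against controls (horizontal axis, bars show the standard error) for the 22 measured pairs of a muscle gene (squares) and a counterpart in other cells (circles), with open symbols for genes that were not called. In 15 pairs the muscle gene lies on the left and was called lower, and its counterpart on the right was called higher.

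Macrophage genes were higher in both tumors. Of 22 macrophage genes 20 rose and 0 fell, with a median log2 fold change of 3.29. The IgG receptor Fcgr3a had log2 signals of 12.21 and 10.6 in the tumors and 4.87, 5.67 and 5.6 in the controls and a log2 fold change of 6.02 (standard error 0.9, adjusted p = 0.00046). Gpnmb, a transmembrane glycoprotein of macrophages, lay at 12.45 and 11.58 in the tumors and 6.57, 8.45 and 6.74 in the controls and rose by 4.76 (standard error 0.64, adjusted p = 0.00023). The lysosomal glycoprotein Cd68 lay at 10.82 and 11.01 in the tumors and 6.01, 7.89 and 7.07 in the controls and rose by 3.92 (adjusted p = 0.0051), and the inhibitory IgG receptor Fcgr2b rose by 3.41 (adjusted p = 0.031). Among the controls replicate 2 was the highest for Gpnmb, Cd68 and Fcgr2b, but below both tumors. Cd163, a scavenger receptor of tissue macrophages, was not called (1.52, adjusted p = 0.53). The list mean was 10.91 and 11.07 in the tumors and 7.23, 8.33 and 7.61 in the controls. The list of macrophages had counts of 13 higher without MWCNT B replicate 1 and 11 higher without MWCNT B replicate 2. Fcgr2b lost its call without MWCNT B replicate 1 or 2 or control replicate 1 or 3 (adjusted p up to 0.13). Fcgr2b (2.95) was not called after centring.

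Other leukocytes were less evident. Neutrophil genes had 1 of 9 higher, S100a8 (5.29, adjusted p = 0.041, 2.45 at the floor), and the gene of the antibacterial protein Lcn2 was high only in MWCNT B replicate 1 (10.75 and 6.74 against 4.33, 4.79 and 5.32, adjusted p = 0.092). Of T and NK cell genes 2 of 21 rose, the coreceptor genes Cd4 (2.04, adjusted p = 0.048) and Cd8b (4.14, adjusted p = 0.0073, 0.24 at the floor), whereas the T cell receptor subunit Cd3e was not called (1.26, adjusted p = 0.45). Of B and plasma cell genes 1 of 11 rose, syndecan 1 (Sdc1), which epithelial cells express too, and the B cell gene Ms4a1 was not called (0.73, adjusted p = 0.75). Of mast cell genes 4 of 13 rose, the IL-33 receptor Il1rl1 (6.57, adjusted p = 0.0099, 4.45 at the floor), the mast cell proteases Mcpt10 (7.77, adjusted p = 0.023, 2.86 at the floor) and Mcpt4 (1.29, adjusted p = 0.044, with all values below the floor) and the transcription factor Gata2 (1.01, adjusted p = 0.043), while the mast cell protease Cpa3 was not called (-0.35, adjusted p = 0.89). These shares lie below the 23.1% of all genes, except that of mast cells. With the probe sets of the largest change, 5 T and NK cell genes rose, and the counts of the other lists here did not change. The share over all genes was not computed for that choice of probe sets. The list of neutrophils had counts of 0 higher without MWCNT B replicate 1 or control replicate 1 or 3, 2 higher without control replicate 2, 0 higher at the floor and 0 higher after centring. The list of T and NK cells had counts of 0 higher without MWCNT B replicate 1, 1 higher without MWCNT B replicate 2 or control replicate 1, 2 or 3, 0 higher at the floor and 1 higher after centring. The list of B and plasma cells had counts of 2 higher without MWCNT B replicate 2. The list of mast cells had counts of 0 higher without MWCNT B replicate 1, 1 higher without MWCNT B replicate 2 or control replicate 1 or 3, 1 higher at the floor and 2 higher after centring. Cd8b and Il1rl1 lost their calls without MWCNT B replicate 1, S100a8 without MWCNT B replicate 1 or control replicate 1 or 3, Mcpt10 and Mcpt4 without MWCNT B replicate 1 or 2 or control replicate 1 or 3, and Cd4 and Gata2 without any 1 of the 5 arrays (adjusted p up to 0.29). S100a8 (2.45), Cd4 (2.04), Cd8b (0.24), Il1rl1 (4.45), Mcpt10 (2.86) and Mcpt4 were not called at the floor, nor were S100a8 (4.83), Cd4 (1.59), Mcpt4 (0.83) and Gata2 (0.55) after centring.

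Chemokines and cytokines that recruit and activate leukocytes were higher for a part of their lists. Of 20 CXC chemokines and receptors 7 rose, with Cxcl16, a chemokine that is also a scavenger receptor, at 11.13 and 10.61 in the tumors and 5.96, 6.75 and 6.73 in the controls and a log2 fold change of 4.39 (standard error 0.62, adjusted p = 0.00033). The interferon-induced chemokine Cxcl10 was higher in MWCNT B replicate 2, at 6.69 and 9.75 against 4.28, 4.26 and 3.63, and rose by 4.16 (adjusted p = 0.0088), or 3.22 at the floor. The fractalkine receptor Cx3cr1 rose by 3.67 (adjusted p = 0.00095), or 3.07 at the floor. Of 20 CC chemokines and receptors 1 rose, the monocyte chemokine Ccl2 (11.53 and 9.16 against 7.16, 7.48 and 6.31, log2 fold change 3.36, adjusted p = 0.022). Of 31 cytokine and inflammasome genes 19 rose. Il18 had log2 signals of 10.3 and 9.63 in the tumors and 4.07, 5.51 and 4.89 in the controls and a log2 fold change of 5.14 (standard error 0.74, adjusted p = 0.00037), or 4.8 at the floor. The alarmin Il33 lay at 12.53 and 12.75 in the tumors and 8.13, 8.81 and 8.83 in the controls and rose by 4.05 (adjusted p = 0.03), the pore-forming protein gasdermin D (Gsdmd) by 3.32 (adjusted p = 0.00021) and the lipoprotein receptor Tlr2 by 3.82 (adjusted p = 0.0036), or 3.2 at the floor. Tnf and Ifng were not called (0.72, adjusted p = 0.2 and -0.03, adjusted p = 0.96). The list of CXC chemokines and receptors had counts of 4 higher without MWCNT B replicate 1, 4 higher at the floor and 1 lower at the floor. The list of CC chemokines and receptors had counts of 0 higher without MWCNT B replicate 1 or control replicate 3. The list of cytokines and inflammasome had counts of 10 higher without MWCNT B replicate 1, 12 higher without MWCNT B replicate 2 or control replicate 1 or 3 and 12 higher after centring. Cxcl10 lost its call without MWCNT B replicate 2, Ccl2 without MWCNT B replicate 1 or control replicate 3, and Il33 without any 1 of the 5 arrays (adjusted p up to 0.21). Il33 (3.59) was not called after centring.

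A part of the complement genes and most antigen presentation genes were higher. Of 21 complement genes 9 rose and 1 fell, the inhibitor of the membrane attack complex Cd59b, at 10.7 and 9.64 in the tumors and 11.88, 11.76 and 11.77 in the controls, being the lower gene. The central component C3 lay at 11.58 and 9.27 in the tumors and 3.91, 5.81 and 4.4 in the controls and rose by 5.72 (standard error 1.37, adjusted p = 0.0072), or 5.16 at the floor. Its anaphylatoxin receptor C3ar1 rose by 4.56 (adjusted p = 0.0053), or 3.58 at the floor, the lectin pathway protease Masp1 by 4.19 (adjusted p = 0.0054) and the C1q chain C1qb by 3.41 (adjusted p = 0.0071), whereas C5, the start of the membrane attack complex, was not called (0.55, adjusted p = 0.63). Masp1 has probe sets that disagree, and the one with the largest change changed by -4.69. Of 20 genes of antigen presentation 13 rose, led by the immunoproteasome subunits Psmb8 (11.16 and 11.38 in the tumors and 7.06, 7.5 and 7.3 in the controls, log2 fold change 3.99, adjusted p = 0.00028) and Psmb9 (3.63, adjusted p = 0.00086), the peptide transporter Tap1 (4.85, adjusted p = 0.0012, 3.75 at the floor) and RT1-DMa (3.32, adjusted p = 0.0046), which loads peptides on class II molecules, whereas the class II regulator Ciita was not called (0.66, adjusted p = 0.4). Of interferon response genes 6 of 21 rose, a share close to that over all genes. Among them were Bst2 (3.32, adjusted p = 7.4e-05), Gbp2 (3.17, adjusted p = 0.0011), Irf1 (2.13, adjusted p = 0.0037) and Ifih1 (2.18, adjusted p = 0.012). The antiviral gene Mx1 was high in MWCNT B replicate 2 alone at 7.93 and 11.93 against 7.17, 7.38 and 7.2 and was not called. Of 10 measured immune checkpoint genes 6 rose, including the costimulator Cd86 (2.79, adjusted p = 0.0052), Vsir (2.66, adjusted p = 0.014), Cd276 (2.38, adjusted p = 0.018) and the signal against phagocytosis Cd47 (2.25, adjusted p = 0.0026), whereas Ctla4 was not called (0.12, adjusted p = 0.7). The list holds 16 genes, and Cd274, Pdcd1lg2, Pdcd1, Lag3, Havcr2 and Tigit were not measured. The list of complement had counts of 5 higher without MWCNT B replicate 2, 0 lower without MWCNT B replicate 2 or control replicate 1, 2 or 3, 0 lower at the floor and 2 lower after centring. The list of antigen presentation had counts of 8 higher without MWCNT B replicate 2. The list of interferon response had counts of 3 higher without MWCNT B replicate 2. The list of immune checkpoints had counts of 3 higher without MWCNT B replicate 2. C3 lost its call without MWCNT B replicate 1, C1qb, Ifih1 and Cd86 without MWCNT B replicate 2, and Vsir and Cd276 without MWCNT B replicate 1 or 2 (adjusted p up to 0.12).

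Genes that modify collagen were higher in both tumors. Of 20 genes of collagen crosslinking and laminins 9 rose. The prolyl hydroxylase subunit P4ha3 had log2 signals of 11.03 and 10.61 in the tumors and 3.08, 5.04 and 4.84 in the controls and a log2 fold change of 6.5 (standard error 1.01, adjusted p = 0.00058), or 5.81 at the floor. The lysyl hydroxylase Plod2 lay at 12.84 and 12.93 in the tumors and 8.15, 7.92 and 8.39 in the controls and rose by 4.73 (standard error 0.74, adjusted p = 0.00062), and the lysyl oxidases Lox and Loxl1 rose by 4.17 (adjusted p = 0.0069) and 3.86 (adjusted p = 0.0018). Of 25 genes of fibroblasts and collagens 9 rose, namely Col8a1 (4.8, adjusted p = 0.018), the surface antigen Thy1 (3.58, adjusted p = 0.0076), the collagen VI chains Col6a2 (2.57, adjusted p = 0.0096) and Col6a1 (2.49, adjusted p = 0.0061) and 5 others. The collagen I chain Col1a1 was at 13.81 and 12.52 in the tumors and 12.22, 12.9 and 12.44 in the controls, so that the groups overlapped, and was not called (0.64, adjusted p = 0.55). Of proteoglycan and hyaluronan genes 8 of 18 rose, and beside Spp1 they included Sdc1 (11.34 and 12.64 against 5.33, 6.04 and 6.45, log2 fold change 6.05, adjusted p = 0.00022), the hyaluronan receptor Cd44 (4.01, adjusted p = 0.024) and versican (Vcan, 3.67, adjusted p = 0.029). The list of fibroblasts and collagens had counts of 1 higher without MWCNT B replicate 1, 2 higher without MWCNT B replicate 2, 4 higher without control replicate 1 or 3 and 5 higher after centring. The list of proteoglycans and hyaluronan had counts of 5 higher without MWCNT B replicate 2, 1 lower without MWCNT B replicate 1 and 1 lower after centring. Lox, Col6a2 and Col6a1 lost their calls without MWCNT B replicate 1, Thy1 without MWCNT B replicate 2, Col8a1 without MWCNT B replicate 1 or 2, Cd44 without MWCNT B replicate 2 or control replicate 1 or 3, and Vcan without MWCNT B replicate 1 or 2 or control replicate 1 or 3 (adjusted p up to 0.17).

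Of 26 proteases of invasion and their inhibitors 13 rose. The inhibitor of metalloproteinases Timp1 lay at 12.63 and 11.97 in the tumors and 6.49, 7.68 and 6.8 in the controls and rose by 5.31 (standard error 1.01, adjusted p = 0.0021). The urokinase receptor Plaur lay at 9.6 and 10.42 in the tumors and 3.58, 4.71 and 5.08 in the controls and rose by 5.55 (standard error 1.16, adjusted p = 0.0034), or 4.98 at the floor, whereas urokinase itself (Plau) was not called (0.81, adjusted p = 0.56). Tissue plasminogen activator (Plat) rose by 3.72 (adjusted p = 0.0054) and the membrane-bound metalloproteinase Mmp14 by 3.02 (adjusted p = 0.0053). The gelatinases Mmp2 and Mmp9 were not called (1.19, adjusted p = 0.2 and 4.9, adjusted p = 0.08), and Mmp9 was at 5.42 and 4.4 in the tumors and 0.0, 0.01 and 0.0 in the controls. Of 20 integrins 12 rose and 2 fell, with the laminin receptor chain Itga3 (9.26 and 10.97 against 4.79, 4.48 and 5.35, log2 fold change 5.24, adjusted p = 0.00062), the myeloid chain Itgax (4.92, adjusted p = 0.0036, 4.09 at the floor) and Itga8 (4.05, adjusted p = 0.00095) higher and Itgb6 (-3.77, adjusted p = 0.044) and Itgae (-1.43, adjusted p = 0.016) lower. Of 26 genes of SRC, SYK and RAC signaling 11 rose, among them Vav1 (4.8, adjusted p = 0.0023, 3.76 at the floor), an exchange factor of leukocytes, the SRC family kinase Lyn (3.66, adjusted p = 0.00059), Ptk2b (3.22, adjusted p = 0.00045) and Src (2.89, adjusted p = 0.00024), whereas Syk was not called (1.67, adjusted p = 0.098). The list of proteases of invasion had counts of 6 higher without MWCNT B replicate 1 and 8 higher at the floor. The list of integrins had counts of 7 higher without MWCNT B replicate 1, 1 lower without MWCNT B replicate 1 or control replicate 1, 2 or 3 and 0 lower without MWCNT B replicate 2. Mmp14 lost its call without MWCNT B replicate 1, Itgae without MWCNT B replicate 2, and Itgb6 without any 1 of the 5 arrays (adjusted p up to 0.29).

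Growth factor genes and their receptors rose more often than they fell, and the shares that fell were below that over all genes. Of 31 growth factors 11 rose and 1 fell. Tgfa, a ligand of the EGF receptor, had log2 signals of 8.33 and 9.47 in the tumors and 0.01, 2.35 and 3.79 in the controls and rose by 6.85 (standard error 1.31, adjusted p = 0.0021), or 3.9 at the floor, whereas Egf, another ligand of this receptor, lay at 7.92 and 8.17 in the tumors and 12.65, 12.27 and 12.22 in the controls and changed by -4.34 (standard error 0.51, adjusted p = 0.0001). Angptl4 rose by 3.19 (adjusted p = 0.011) and pleiotrophin (Ptn) by 3.03 (adjusted p = 0.0042), and Vegfa was not called (-0.3, adjusted p = 0.81). Of 29 receptor tyrosine kinases 10 rose and 2 fell. The ephrin receptor Epha2 lay at 9.42 and 10.01 in the tumors and 5.14, 5.36 and 5.83 in the controls and rose by 4.27 (adjusted p = 0.00098), and Mertk, a receptor of macrophages for dying cells, rose by 2.83 (adjusted p = 0.0047). The 2 receptors that fell, Ret and Fgfr4, are described with the genes of the study. Egfr and Met were not called (0.79, adjusted p = 0.61 and 1.23, adjusted p = 0.14). The list of growth factors had counts of 3 higher without MWCNT B replicate 1, 6 higher without MWCNT B replicate 2, 7 higher without control replicate 1 and 7 higher at the floor. The list of receptor tyrosine kinases had counts of 4 higher without MWCNT B replicate 1, 3 higher without MWCNT B replicate 2, 5 higher without control replicate 1 or 3, 6 higher at the floor, 4 higher after centring and 1 lower without MWCNT B replicate 1 or 2 or control replicate 1. Angptl4 and Mertk lost their calls without MWCNT B replicate 2, and Ptn without MWCNT B replicate 1 (adjusted p up to 0.093).

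Of TGF-beta and activin genes 11 of 24 rose. The latent TGF-beta binding protein Ltbp2 lay at 9.63 and 11.29 in the tumors and 3.12, 4.11 and 2.59 in the controls and rose by 7.18 (standard error 0.97, adjusted p = 0.00024), or 5.46 at the floor. The activin subunits Inhba and Inhbb rose by 4.89 (adjusted p = 0.0084) and 3.85 (adjusted p = 0.0016), Bmp2 by 2.71 (adjusted p = 0.017) (by 4.21 without MWCNT B replicate 1) and Tgfb1 by 3.14 (adjusted p = 0.00066), or 2.61 at the floor, whereas Tgfb2 was not called (0.01, adjusted p = 1.0). Of WNT genes 5 of 25 rose and 1 fell, shares close to those over all genes. Dkk3 rose by 3.96 (adjusted p = 0.0087), the ligand Wnt5a by 2.44 (adjusted p = 0.0082) and the receptor Fzd1 by 3.17 (adjusted p = 0.0011), whereas the receptor Fzd4 changed by -2.94 (adjusted p = 0.0062). The ligand Wnt5b lay at 8.4 and 8.91 in the tumors and 0.02, 0.01 and 0.01 in the controls, near 0 in all controls, and rose by 8.64 (adjusted p = 0.00023), or 3.66 at the floor. Wnt10a reached 12.56 in MWCNT B replicate 2 and 7.54 in replicate 1, above controls of 6.63 to 6.86, and rose by 3.35 (adjusted p = 0.021), with a log2 fold change of 5.86 without MWCNT B replicate 1. Of Hippo pathway genes 5 of 18 rose, a share close to that over all genes, and 1 fell. Ajuba (3.03, adjusted p = 0.029), Amotl2 (2.24, adjusted p = 0.011), the kinases Stk3 (1.99, adjusted p = 0.00012) and Lats1 (1.15) and the receptor Axl (1.6, adjusted p = 0.024) were higher and the transcription factor Tead4 (-1.93, adjusted p = 0.0023) was lower. The list of TGF-beta and activin had counts of 7 higher without MWCNT B replicate 1, 6 higher without MWCNT B replicate 2 and 1 lower after centring. The list of WNT had counts of 3 higher without MWCNT B replicate 1 and 0 lower without MWCNT B replicate 2. The list of Hippo pathway had counts of 2 higher without MWCNT B replicate 1, 3 higher without control replicate 1 or 3, 3 higher after centring and 2 lower after centring. Inhba, Dkk3, Wnt5a and Amotl2 lost their calls without MWCNT B replicate 1, Bmp2, Fzd4 and Lats1 without MWCNT B replicate 2, Wnt10a without MWCNT B replicate 2 or control replicate 1 or 3, Ajuba without MWCNT B replicate 1 or control replicate 1, 2 or 3, and Axl without MWCNT B replicate 1 or 2 or control replicate 1 or 3 (adjusted p up to 0.21). Lats1 (0.69) and Axl (1.14) were not called after centring.

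Immediate early genes, which respond to growth and stress signals within minutes, had 10 of 21 higher and 1, Nr4a1, lower. Myc lay at 10.12 and 10.18 in the tumors and 7.35, 6.87 and 7.13 in the controls and rose by 3.03 (standard error 0.32, adjusted p = 5.2e-05), Egr2 rose by 3.85 (adjusted p = 0.0041) and Junb by 2.9 (adjusted p = 0.00066), and Fos was not called (0.24, adjusted p = 0.83). Of tumor suppressor genes of mesothelioma 2 of 12 rose and 2 fell, with Rassf1 (1.65, adjusted p = 4e-05) and Lats1 (1.15, adjusted p = 0.0012) higher and Tsc1 (-1.36, adjusted p = 0.0051) and Fbxw7 (-2.2, adjusted p = 0.035) lower. Nf2, Bap1 and Cdkn2a, the suppressor genes best known in this cancer, were not called, with a log2 fold change of -0.37, adjusted p = 0.31 for Nf2, of -0.78, adjusted p = 0.0037 for Bap1 and of 0.67, adjusted p = 0.44 for Cdkn2a. Bap1 missed only the limit on fold change, and after centring it was called lower (-1.23). Cdkn2a was near background, at 5.34 and 3.36 in the tumors and 2.95, 3.98 and 4.09 in the controls. Its log2 fold change at the floor was 0.17. Of senescence genes 9 of 16 rose, among them Tgfb1, the lysosomal beta-galactosidase Glb1 (2.86, adjusted p = 9.6e-05), Igfbp7 (1.8, adjusted p = 0.002) and the lamin Lmnb1 (2.52, adjusted p = 0.00011). Of these, Lmnb1 is known for its loss in senescent cells, so that its rise is opposite to the name of the list. The list of immediate early genes had counts of 6 higher without MWCNT B replicate 1, 4 higher without MWCNT B replicate 2 and 5 higher after centring. The list of mesothelioma tumor suppressors had counts of 1 higher without MWCNT B replicate 2, 1 higher and 3 lower after centring and 1 lower without any 1 of the 5 arrays. The list of senescence had counts of 5 higher without MWCNT B replicate 1 or control replicate 1 or 3, 4 higher at the floor and 5 higher after centring. Egr2 and Lats1 lost their calls without MWCNT B replicate 2, and Fbxw7 without any 1 of the 5 arrays (adjusted p up to 0.14). Lats1 (0.69) was not called after centring.

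Many genes of protein folding were higher in both tumors, and so were genes of ribosomal proteins, most of which lost their call after centring. Of 21 genes of endoplasmic reticulum chaperones and stress 13 rose. The disulfide isomerase Pdia4 lay at 12.13 and 11.7 in the tumors and 8.52, 8.77 and 8.55 in the controls and rose by 3.3 (standard error 0.33, adjusted p = 3.3e-05), followed by Pdia3 (2.7, adjusted p = 5.8e-06), Sdf2l1 (2.4, adjusted p = 0.0023) and Hsp90b1 (2.24, adjusted p = 1.3e-05). The stress factor Atf4 was not called (-0.33, adjusted p = 0.27). Of 18 ribosomal protein genes 9 rose, with Rpl3 at 13.8 and 13.8 in the tumors and 11.04, 11.64 and 11.35 in the controls and Rps3, Rpsa and Rpl18 higher by 1.44, 1.36 and 1.34. The list of ribosomal proteins had counts of 1 higher after centring. Rps3 (0.98), Rpsa (0.91) and Rpl18 (0.88) were not called after centring.

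Of iron and NRF2 genes, which protect against oxidative stress, 5 of 24 rose, a share close to that over all genes, and 1 fell. Ceruloplasmin (Cp), a ferroxidase, lay at 11.77 and 11.23 in the tumors and 8.72, 8.37 and 8.49 in the controls and rose by 2.97 (adjusted p = 0.0014), heme oxygenase (Hmox1) rose by 2.84 (adjusted p = 0.011), Gclc by 2.17 (adjusted p = 0.01), the transcription factor NRF2 (Nfe2l2) by 1.76 (adjusted p = 0.00082) and Gsr by 1.45 (adjusted p = 0.012), and the transferrin receptor Tfrc changed by -2.77 (adjusted p = 0.029), and by -4.18 without MWCNT B replicate 1. Of NADPH oxidase and related genes 5 of 11 rose and 1 fell, the phagocyte oxidase subunits Cybb (2.97, adjusted p = 0.007) and Cyba (2.97, adjusted p = 3.8e-05), Nox4 (2.58, adjusted p = 0.011, 2.13 at the floor), Nox1 (2.08, adjusted p = 0.015, 1.41 at the floor) and Xdh (1.73, adjusted p = 0.012) higher and Noxo1 (-1.6, adjusted p = 0.014) lower. Of prostaglandin and leukotriene genes 8 of 22 rose and 1, the synthase Ptges2 (-1.57, adjusted p = 0.00019), fell, with prostacyclin synthase (Ptgis) at 12.22 and 11.25 in the tumors and 6.49, 6.74 and 6.62 in the controls and a log2 fold change of 5.12 (adjusted p = 0.0099), the lipoxygenase Alox15 (4.74, adjusted p = 0.025), cyclooxygenase 1 (Ptgs1, 3.61, adjusted p = 0.0057) and the phospholipase Pla2g4a (2.31, adjusted p = 0.025), whereas Ptgs2 was not called (1.94, adjusted p = 0.36). Of the BCL2 family and its relatives in apoptosis 8 of 18 rose, led by survivin (Birc5, 4.86, adjusted p = 0.00029, 3.8 at the floor), Bok (3.11, adjusted p = 0.0072), the activator of apoptosis Bbc3 (2.49, adjusted p = 5.3e-05) and Bcl2l11 (2.24, adjusted p = 0.0028), and Bcl2 was not called (0.68, adjusted p = 0.41). The list of iron and NRF2 had counts of 2 higher without MWCNT B replicate 1, 3 higher without MWCNT B replicate 2 and 0 lower without MWCNT B replicate 2 or control replicate 1, 2 or 3. The list of NADPH oxidase had counts of 3 higher without MWCNT B replicate 1, 2 higher without MWCNT B replicate 2 and 0 lower without MWCNT B replicate 1. The list of prostaglandins and leukotrienes had counts of 2 higher without MWCNT B replicate 1, 4 higher without MWCNT B replicate 2, 5 higher without control replicate 3 and 4 higher after centring. The list of BCL2 family had counts of 5 higher without MWCNT B replicate 2 or control replicate 1, 4 higher after centring and 1 lower after centring. Gsr, Cybb, Noxo1 and Ptgis lost their calls without MWCNT B replicate 1, Nox4, Xdh, Ptgs1 and Bok without MWCNT B replicate 2, Hmox1, Gclc and Nox1 without MWCNT B replicate 1 or 2, Tfrc without MWCNT B replicate 2 or control replicate 1, 2 or 3, and Alox15 and Pla2g4a without MWCNT B replicate 1 or 2 or control replicate 1 or 3 (adjusted p up to 0.31). Gsr (1.0), Xdh (1.27) and Pla2g4a (1.85) were not called after centring.

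Enzymes of DNA methylation and chromatin had 7 of 26 higher and 1, the demethylase Tet1 (-2.69, adjusted p = 0.035, -2.38 at the floor), lower. The share of higher genes was close to that over all genes. With the probe sets of the largest change, 11 rose and 2 fell. The maintenance methyltransferase Dnmt1 lay at 9.69 and 10.94 in the tumors and 6.75, 7.03 and 6.43 in the controls and rose by 3.58 (standard error 0.39, adjusted p = 6.2e-05), its cofactor Uhrf1 rose by 3.93 (adjusted p = 0.00057), or 2.96 at the floor, the deacetylase Hdac1 by 2.63 (adjusted p = 0.00029) and the polycomb methyltransferase Ezh2 by 2.61 (adjusted p = 0.00023), whereas the de novo methyltransferases Dnmt3a and Dnmt3b were not called (-1.29, adjusted p = 0.12 and 0.49, adjusted p = 0.27). Of RNA methylation genes 4 of 20 rose, a share close to that over all genes. They were the binding protein Igf2bp1 (1.98, adjusted p = 0.0077), Trdmt1 (1.69, adjusted p = 0.0032), Alyref (1.54, adjusted p = 0.00043) and Nsun6 (1.05, adjusted p = 0.026), and the methyltransferase Mettl3 was not called (0.42, adjusted p = 0.15). With the probe sets of the largest change, 7 RNA methylation genes rose. Of tubulin genes 5 of 12 rose and 2 fell, with Tubb5 (3.34, adjusted p = 4.5e-07), Tubb6 (3.17, adjusted p = 0.0015), Tubb2b (1.82, adjusted p = 0.048), Tubb2a (1.55, adjusted p = 0.029) and the tubulin-binding protein Stmn1 (3.27, adjusted p = 1.5e-05) higher and Tuba8 (-7.43, adjusted p = 3.6e-09) and Tuba4a (-4.1, adjusted p = 0.00049) lower. The list of DNA methylation and chromatin had counts of 0 lower without MWCNT B replicate 2 or control replicate 1, 2 or 3, 0 lower at the floor and 4 lower after centring. The list of RNA methylation had counts of 2 higher without MWCNT B replicate 2 and 1 lower after centring. The list of tubulins had counts of 3 higher without MWCNT B replicate 1 or 2 or control replicate 1 or 3 and 3 higher after centring. Igf2bp1 lost its call without MWCNT B replicate 2, Tet1 without MWCNT B replicate 2 or control replicate 1, 2 or 3, Nsun6 without MWCNT B replicate 1 or 2 or control replicate 2 or 3, Tubb2a without MWCNT B replicate 1 or 2 or control replicate 1 or 3, and Tubb2b without any 1 of the 5 arrays (adjusted p up to 0.28). Tet1 (-2.38) and Tubb2b (1.82) were not called at the floor, nor were Nsun6 (0.59), Tubb2b (1.36) and Tubb2a (1.09) after centring.

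Few or no marker genes of several other cell types were called. Of endothelial genes 0 of 16 rose and 0 fell, with Pecam1 at 9.23 and 8.06 in the tumors and 8.7, 8.9 and 9.26 in the controls and Kdr at 10.15 and 7.4 in the tumors and 9.6, 9.6 and 9.64 in the controls. The 3 controls lay between the 2 tumors for Kdr and overlapped with them for Pecam1. Of adipocyte genes 0 of 15 rose and 2 fell, Slc2a4, which is also a muscle gene, and the desaturase Scd (-6.51, adjusted p = 0.0046, -5.76 at the floor), while Adipoq was at 11.27 and 11.39 in the tumors and 9.89, 11.07 and 11.14 in the controls. Of 5 red blood cell genes and 14 pancreatic enzyme genes none was called, and the list mean of the latter was 5.8 and 5.45 in the tumors and 4.46, 4.09 and 4.67 in the controls. Of liver genes 1 of 12 was called, Apoa2 (3.68, adjusted p = 0.024, with all values below the floor), and albumin (Alb), at 9.67 and 7.29 in the tumors and 4.26, 6.11 and 6.68 in the controls, was not called. Of nerve and Schwann cell genes 1 of 9 rose, the adhesion molecule Ncam1 (4.99, adjusted p = 0.0071, 4.65 at the floor), and the Schwann cell factor Sox10 was not called (1.14, adjusted p = 0.069). The list of endothelial cells had counts of 2 lower without MWCNT B replicate 1 and 2 lower after centring. The list of adipocytes had counts of 1 lower without MWCNT B replicate 2. The list of liver had counts of 0 higher without MWCNT B replicate 1 or 2 or control replicate 1 or 3 and 0 higher at the floor. The list of nerve and Schwann cells had counts of 0 higher without MWCNT B replicate 1, 1 lower without control replicate 1 and 1 lower after centring. Scd lost its call without MWCNT B replicate 2, Ncam1 without MWCNT B replicate 1, and Apoa2 without MWCNT B replicate 1 or 2 or control replicate 1 or 3 (adjusted p up to 0.13). Apoa2 was not called at the floor.

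The study named genes from these same samples, and their counts are therefore not independent evidence. Of its mesothelioma genes 33 were measured, of which 25 rose and 4 fell. Beside genes already described, the transcription factor Foxm1 had log2 signals of 6.95 and 7.71 in the tumors and 1.77, 3.18 and 2.41 in the controls and rose by 4.88 (adjusted p = 0.0001), or 2.33 at the floor, the receptor kinase Flt3 by 3.23 (adjusted p = 0.0034), or 1.97 at the floor, and the metalloproteinase Adam10 by 2.31 (adjusted p = 0.012), and, beside Tuba8 and Tuba4a, the mitochondrial mutase Mmut (-2.05, adjusted p = 0.00012) and the autophagy kinase Ulk2 (-1.52, adjusted p = 0.0022) were lower. Among these genes, Por, Ddx51, Pias3, Prr5, Traf7, Bcl10 and Sp1 rose by 1.76, 1.67, 1.48, 1.38, 1.32, 1.29 and 1.2, and Top2a and Tubb2a by 4.69 and 1.55. Cdh2 rose by 4.2, while Top2b, Ep300, Tp63 and Tube1 were not called. With each gene represented by its probe set of the largest change, 28 of the mesothelioma genes rose and 5 fell, so these missing calls depend on the probe set. Another list holds the 6 RT-qPCR genes. Of these, Rnd3, a small GTPase, rose by 2.97 (adjusted p = 0.0027) from 7.81, 7.83 and 8.15 to 11.09 and 10.7. The receptor kinase Ret lay at 6.12 and 6.31 in the tumors and 12.35, 12.12 and 11.88 in the controls and changed by -5.9 (adjusted p = 0.022), the nuclear receptor Nr4a1 by -3.85 (adjusted p = 0.00023), the phospholipase Plaat1 by -3.38 (adjusted p = 0.00017) and the receptor Fgfr4 by -3.31 (adjusted p = 0.0014). Gadd45b was not called (0.58, adjusted p = 0.52). The study reports Gadd45b as upregulated in its own array analysis and in most tumors of a larger RT-qPCR set. Why the calls differ was not tested. The study's network for MWCNT B shows regulators predicted to be active by pathway analysis, which is not a measure of their own RNA. Of 8 genes of this network 5 rose and 1 fell by their own RNA. These were Il33, Src, Foxm1, Il1b (8.61 and 6.81 against 4.77, 4.85 and 4.59, log2 fold change 2.97, adjusted p = 0.024) and Il6 (5.93 and 3.01 against 0.02, 0.0 and 0.12, log2 fold change 4.42, adjusted p = 0.034, 0.47 at the floor), with Tead4 lower. The list of study MWCNT B network genes had counts of 2 higher without MWCNT B replicate 1 or control replicate 1 or 3, 3 higher without control replicate 2, 3 higher at the floor and 2 higher after centring. Ddx51 lost its call without MWCNT B replicate 1, Adam10 without MWCNT B replicate 1 or 2, Prr5 and Ret without MWCNT B replicate 1 or 2 or control replicate 1, Il1b without MWCNT B replicate 1 or control replicate 1 or 3, Tubb2a without MWCNT B replicate 1 or 2 or control replicate 1 or 3, Cdh2 without MWCNT B replicate 2 or control replicate 1, 2 or 3, and Il6 without MWCNT B replicate 1 or control replicate 1, 2 or 3 (adjusted p up to 0.3). Cdh2 (3.65), Il1b (2.71) and Il6 (0.47) were not called at the floor, nor were Prr5 (0.92), Traf7 (0.87), Bcl10 (0.83), Sp1 (0.74), Tubb2a (1.09), Il1b (2.51) and Il6 (3.96) after centring.

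The 2 MWCNT B tumors differed from each other by more than 4-fold at the floor in 351 genes that were higher in the epithelioid tumor (2.47% of 14217) and in 99 that were higher in the sarcomatoid tumor (0.696%). With 1 tumor of each type there is no test of this difference. The genes named were chosen by the size of the difference. The metalloproteinase matrilysin (Mmp7) had a log2 signal of 14.86 in the epithelioid and 4.27 in the sarcomatoid tumor, against 4.91 to 5.07 in the controls. The lectin Lgals4 was at 13.48 and 5.67, prostaglandin D synthase (Ptgds) at 12.43 and 4.52 and E-cadherin (Cdh1) at 11.05 and 4.59. The homeobox gene Rhox5, Fxyd3, the sulfotransferase Sult1b1, Agr2, Krt7 and the glutathione peroxidase Gpx2 were the others of the 10 with the largest difference, at 11.18 to 12.01 in the epithelioid and 3.76 to 5.21 in the sarcomatoid tumor.

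Higher in the sarcomatoid tumor was Ndp, which encodes norrin, a ligand of the receptor FZD4, at 15.93 against 6.93 in the epithelioid tumor and 6.57 to 6.74 in the controls. The chromatin protein Hmga2 was at 16.28 and 8.09, and the controls were at 8.41 to 8.53, so that the epithelioid tumor was below the controls. The calmodulin-binding protein Pcp4 was at 14.62 and 6.96, and the exchange factor Rasgrf1 at 16.05 and 8.46. The range of the 9 other tumors was 7.9 to 17.37 for Hmga2 and 7.65 to 8.51 for Rasgrf1, so that the sarcomatoid MWCNT B tumor lay within the range for Hmga2 and above it for Rasgrf1. For Wnt10a it was above the range too, with 12.56 against 7.0 to 7.55. Mmp10, Gabra2, the collagen IV chain Col4a6, N-cadherin (Cdh2) and Aldh3a1 were at 9.9 to 11.16 in the sarcomatoid and 4.41 to 7.08 in the epithelioid tumor.

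**Figure D5:**
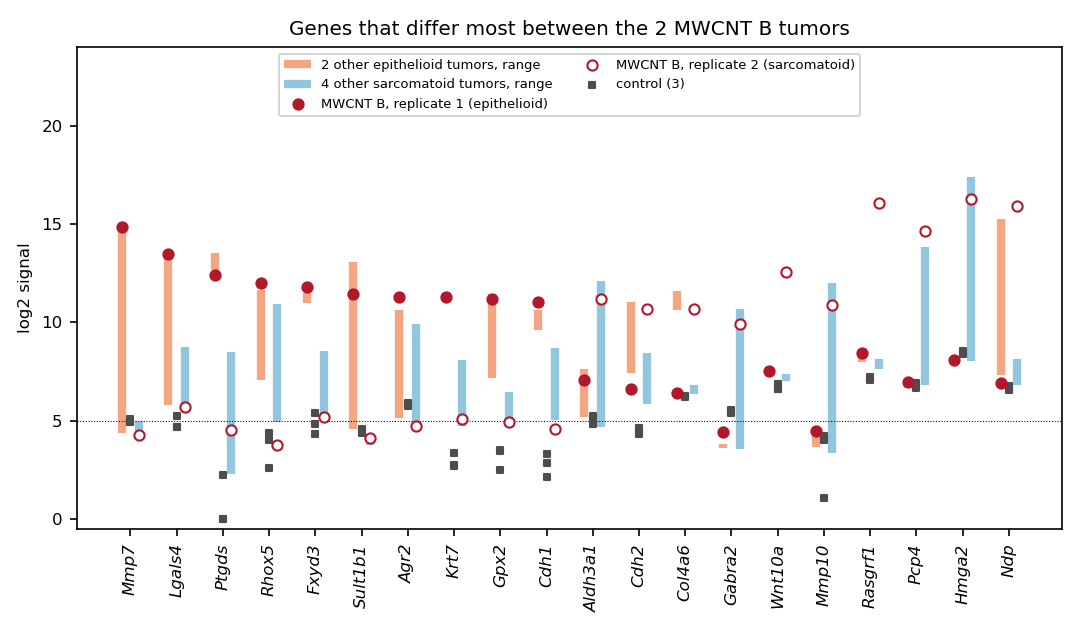
Log2 signal (vertical axis) of the 10 genes with the largest difference in each direction between the 2 MWCNT B tumors, 1 point for each tumor and control, with bars for the range of the other epithelioid (2) and sarcomatoid (4) tumors. Mmp7 lies at 14.86 and 4.27 and Ndp at 6.93 and 15.93 in the 2 tumors, and Rasgrf1 and Wnt10a of the sarcomatoid tumor lie above both ranges.

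To set the difference beside the histological type, genes were taken from the 9 other tumors, which are independent of the MWCNT B tumors. Between the 2 epithelioid and the 4 sarcomatoid tumors among them 31 genes (0.218%) were higher in the epithelioid and 2 genes (0.0141%) were lower. Amosite replicate 1, an epithelioid tumor, and MWCNT D replicate 2, a sarcomatoid tumor, were tumors with pancreas genes. The mean log2 signal of the pancreatic enzyme list reached 14.66 among the 9 other tumors, against 5.8 and 5.45 in the MWCNT B tumors. The part of this in the 31 genes was not tested. Of the 31 genes 12 (38.7%) were more than 2-fold higher in the epithelioid than in the sarcomatoid MWCNT B tumor, against 7.3% of all genes, and 1 (3.23%) was more than 2-fold higher in the sarcomatoid tumor, against 2.98% of all genes. The median difference of the 31 was 0.74 on the log2 scale at the floor and that of all genes 0.0. All genes include those below the floor in both tumors, whose difference is fixed at 0. The 31 were chosen because they differ among tumors, so the 2 shares are not of like genes. With 1 MWCNT B tumor of each type, they do not show that the difference follows the type. The following genes of the 31 were chosen after their values were seen. Basonuclin 1 (Bnc1), a transcription factor of the mesothelium, was higher in the other epithelioid tumors by 5.98 (limma adjusted p = 0.049) and by 4.9 at the floor in the epithelioid MWCNT B tumor, with log2 signals of 9.9 and 4.62 in the 2 MWCNT B tumors. Crb2, a protein of the apical membrane, was higher by 4.85 (limma adjusted p = 0.024) and by 3.23, and Zfp185 by 3.71 (limma adjusted p = 0.039) and by 3.42. Col4a6 went the other way, higher by 4.56 in the other epithelioid tumors (limma adjusted p = 0.0019) with a difference of -4.27 between the epithelioid and the sarcomatoid MWCNT B tumor. Ptgds, Krt7, Fxyd3 and Cdh1 had differences of 7.09, 5.03, 4.98 and 3.53 between the other epithelioid and sarcomatoid tumors and were not called there (limma adjusted p = 0.18, 0.11, 0.2 and 0.5). For Mmp7, 1 of the other epithelioid tumors reached 14.85 and the other lay at 4.35. The count of probe sets behind the 31 genes, 51, was 14 without amosite replicate 1, 22 without amosite replicate 3, 23 without MWCNT C replicate 2, 28 without MWCNT D replicate 3 and 279 without MWCNT D replicate 1.

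MWCNT B tumors were then compared with the 9 tumors of the other inducers, to ask what sets them apart. No probe set was called (0.0%), with 834 of 31042 at an unadjusted limma p below 0.05. Without moderation 0 were called as well, with 938 at an unadjusted p below 0.05. A fit that took tumor type into account gave 0 calls as well, with 755 at an unadjusted p below 0.05, and 8 without MWCNT B replicate 1 and 6 without replicate 2. With 2 tumors this does not show that the tumors are alike. Leaving out MWCNT B replicate 1 gave 9 calls, leaving out replicate 2 gave 4 and leaving out amosite replicate 3 gave 2. Against single inducers 0 probe sets were called for MWCNT C (770 at an unadjusted p below 0.05) and for amosite (1203), and 1 for MWCNT D (0.00322%, with 1396 at an unadjusted p below 0.05). This probe set, 1384191_at, has no gene symbol in the annotation. It had log2 signals of 4.23 and 3.86 in the MWCNT B tumors and of 8.72, 9.53 and 7.63 in the MWCNT D tumors, with a log2 fold change of -4.58 (standard error 0.43, limma adjusted p = 0.012), and lay between 3.71 and 4.56 on all other arrays. At the floor the fold change was -3.63 (limma adjusted p = 0.036). The call was lost without MWCNT D replicate 1 or MWCNT B replicate 2, without moderation, with only the 2 groups in the fit, with a replicate block and with the floor set after centring (limma adjusted p = 0.08 to 0.17), and the probe set did not pass a filter on mean signal. Without MWCNT B replicate 1 the counts were 7 against MWCNT C, 10 against MWCNT D and 8 against amosite, without MWCNT B replicate 2 they were 3 against each, and without amosite replicate 3 the count against amosite was 4.

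The genes with the smallest unadjusted p against the other tumors are described without being called, with an adjusted p of 1.0 for each. Aggrecan (Acan), the large proteoglycan of cartilage, had log2 signals of 11.31 and 12.87 in the tumors and 6.04, 6.06 and 6.23 in the controls, and 5.47 to 12.56 in the other tumors with a median of 6.08. It rose by 5.98 (adjusted p = 0.00099) against the controls. F2rl2, a thrombin receptor, was at 6.36 and 7.82 in the tumors and 4.72, 4.16 and 4.64 in the controls, above the range of the other tumors of 4.74 to 6.3, and the choline transporter Slc5a7 at 6.69 and 9.2 in the tumors and 4.98, 5.47 and 5.13 in the controls, against 3.76 to 6.17. Rab38, a small GTPase of melanosome and lysosome traffic, was at 8.95 and 9.52 against 7.41 to 8.61, and the G protein subunit Gnai2 at 12.1 and 12.32 against 11.18 to 11.76. Lower than every other tumor were the metallopeptidase Ermp1, at 8.21 and 8.49 against 9.02 to 10.01, Mcrip2, at 7.27 and 6.98 against 7.58 to 8.55, and Gnpda1, at 9.18 and 9.03 against 9.46 to 10.15. Clstn1 and Kcnma1 completed the 10, and in Clstn1 and Kcnma1 the value of MWCNT B replicate 1 lay within the range of the other tumors.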

How the data were processed

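Total RNA of 11 frozen tumors and 3 control tissues was hybridized to Affymetrix rat genome arrays after 3′ IVT Plus labeling. The authors computed the deposited intensity values with PLIER in the Transcriptome Analysis Console, and how they normalized between arrays is not given in the sources used here. Of 31099 probe sets 57 Affymetrix controls were removed, and 31042 were analysed as log2(signal + 1). Values reached 802576.0, above the range of a scanner, so the largest fold changes contain the scale of the summary method.

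Samples were grouped by the labels. limma 3.58.1 in R 4.3.3 (lmFit, eBayes) was fitted over 14 arrays in 5 inducer groups, and MWCNT B was contrasted with the controls and with the other tumors, with Benjamini-Hochberg adjustment over all probe sets. A fit with tumor type used the 11 tumors, and epithelioid and sarcomatoid tumors were compared within the other 9. The call thresholds follow the study's methods, and the fit was tested on simulated data. P-values measure the spread between these samples. Probe sets were named through the platform annotation, with 20826 having 1 symbol, 436 several and 9780 none, and symbols were matched by gene ID to RefSeq. A gene was represented by its probe set of the highest mean signal (14217 genes, 4525 of them with several probe sets), and genes without such a probe set were not analysed here. Sequences of promoters are from RefSeq (GRCr8).

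The tumors and the 58 lists were chosen with earlier results of these data known. 1 of the lists is not reported here. Named are the 10 largest rises and falls at the floor, the study's genes, in each list the 4 called genes with the largest change and, for many lists, a defining member that was not called, the 10 genes nearest to a call against the other tumors, the 10 largest differences each way between the 2 MWCNT B tumors with a log2 signal of at least 8 in one of them, and the paralog pairs. Other genes were named after their values were seen. Alternatives were quantile normalization, centring, a floor at 5, a pseudocount of 16, a filter at a mean of 6, other moderation, the samples in the fit, a replicate block, an adjusted p below 0.001, other probe sets and leaving out each array. The exact permutation test was not used, since 2 against 3 samples cannot give a small p.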

Additional observations from a re-analysis of the deposited data

Results flagged for a closer look

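A single probe set without a gene symbol, 1384191_at, stood out because it differed between MWCNT B and MWCNT D tumors by limma, with a log2 fold change of -4.58 (standard error 0.43, adjusted p = 0.012), or -3.63 at the floor (adjusted p = 0.036). All 3 MWCNT D tumors, at 8.72, 9.53 and 7.63, were above all 11 other arrays, which lay between 3.71 and 4.56. All but the MWCNT D tumors were below the floor of 5, so the fold is against background, and the call was lost under several alternatives (adjusted p = 0.08 to 0.17 by limma).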

How the results depend on the processing

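Against the controls, the balance between higher and lower probe sets changed with the scaling of the arrays. With each array centred on its median, 3770 probe sets were higher and 5112 lower, with quantile normalization 4342 and 4359, and with centring and then the floor, a combination added after seeing the data, 3012 and 4486. At an adjusted p below 0.001, 2993 were called, 1802 higher and 1191 lower. The filter, the floor alone, the pseudocount of 16, other moderation and only the groups compared gave 5020 to 7430 higher and 2167 to 3431 lower, leaving out 1 of the 5 arrays compared gave 4456 to 5965 and 2226 to 2649, and leaving out 1 of the 9 other tumors, which enter only the error, gave 6313 to 6826 and 2877 to 3020. With a replicate block the counts were 6234 and 2925, and the 1 call against MWCNT D was lost (0 called). It was also 0 with the filter, without moderation, with only the groups compared and with centring and then the floor. The counts of 0 against MWCNT C, amosite and all other tumors did not change under these settings. The numbers did not pair the samples (correlations of -0.0188 and -0.00558 between MWCNT B tumors and controls of the same number).

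Leaving out 1 tumor at a time gave 0 to 9 calls against the other tumors, 0 to 7 against MWCNT C, 0 to 10 against MWCNT D, 0 to 8 against amosite and 0 to 8 with tumor type as a term. Between the other epithelioid and sarcomatoid tumors it gave 16 to 319 calls, 14 to 279 higher and 1 to 40 lower. Without the tumors with pancreas genes, a choice made after seeing the data, 17 were called, 15 of them higher, and at the floor 1 was lower. The cause of these changes was not tested.

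Of the gene changes with another probe set, Asph (-8.17), Atp2a2 (-3.4), Ermp1 (2.13), Masp1 (-4.69), Tp63 (-2.69), Tpm2 (-10.32) and Tpm3 (-6.14) reversed with the probe set of the largest change, and Asph (-3.28), Atp2a2 (-0.13), Ermp1 (0.86), Tp63 (-1.21) and Tpm2 (-3.3) with the median over probe sets. Of 344 gene changes, which cover the genes named here and those the rule selects, 64 lost their call without MWCNT B replicate 1, 61 without replicate 2, 23 to 38 without a control, 30 after centring and 19 at the floor. Signals near background, at a log2 signal below 5, limit what can be measured, since 16.2% to 24.4% of probe sets of an array of this comparison lay there.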
